A study of Mus musculus with 9 samples.

Results

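The genes described here are 45 genes of DNA replication and S phase, taken by symbol from a list of genes that act in copying DNA, which was drawn up with earlier results of these data known. On these arrays 43 of the 45 had a probe set with a single gene symbol, out of 22180 genes tested in all, and for a gene with several such probe sets the one with the highest mean over the 9 arrays was used. Rfc4, a subunit of the clamp loader, and Ccne2, a cyclin of S phase entry, lay only on probe sets that carried a second gene symbol, and were not analysed here. The cells were CD11b+Ly6G- myeloid cells sorted from the plantar skin of the hindpaw 24 h after an incision in male C57BL/6J mice aged 8 weeks. Sorting by the surface protein Ly6C gave Ly6C low, Ly6C medium and Ly6C high cells, with 3 arrays for each gate, and all gates come from wounded skin, with no unwounded group. CD11b marks myeloid cells and Ly6G marks neutrophils, which the gate was set to leave out. The labels say that all cells were collected on the same day, but not how many mice stand behind an array or whether replicates are separate animals, so p-values measure the spread between these arrays, which may be technical.

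Before S phase, the origin recognition complex, with Cdc6 and Cdt1, loads the Mcm2 to Mcm7 ring onto DNA, and this step is called licensing. The ring becomes the moving helicase when Cdc45 and the GINS complex join it. DNA polymerase alpha and its primase then start each strand, the RFC complex loads the PCNA clamp that holds the main polymerases on DNA, the RPA complex covers single-stranded DNA, and Fen1 and Lig1 trim and seal the lagging strand. Many of these genes are targets of the E2F transcription factors, which are released when cyclin-dependent kinases phosphorylate the retinoblastoma protein. Ly6C high monocytes enter wounded skin from blood and can become macrophages with little Ly6C, and macrophages of many tissues can also divide locally.

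The values are deposited log2 intensities, so a difference of 1 is a 2-fold change. Ly6c2, which encodes Ly6C, read 7.69, 7.90 and 9.40 on the Ly6C low arrays, 11.27, 11.20 and 11.20 on the medium arrays and 12.26, 12.48 and 12.08 on the high arrays, in the order of the sort. Itgam, which encodes CD11b, lay between 10.43 and 11.14 on every array, and Ly6g between 2.74 and 4.61, dim on every array. Low replicate 3 stood apart from the other low arrays in Ly6c2 and in markers of neutrophils. The mean of the 8 neutrophil markers was 5.72, 6.27 and 7.36 on the low arrays, 5.97, 6.36 and 6.93 on the medium arrays and 5.36, 5.82 and 6.10 on the high arrays, so that replicate 3 was the highest of its gate each time.

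As a group, the replication genes read highest in Ly6C low cells, while medium and high cells lay close together. The mean log2 value over the 43 genes was 5.91, 5.84 and 5.47 on the low arrays, 5.25, 5.32 and 5.12 on the medium arrays and 5.25, 5.18 and 5.12 on the high arrays. Every low array was above every medium and high array, and low replicate 3 was the closest to them. Low minus high was positive for 39 of the 43 genes, against 52.7% of all genes, and its median was 0.489, against 0.012 over all genes. The median of low minus medium was 0.427, against -0.017 over all genes, and that of medium minus high was 0.035, against 0.029 over all genes. In bulk samples such as these, fewer cells of a type and less RNA per cell cannot be told apart.

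**Figure D1:**
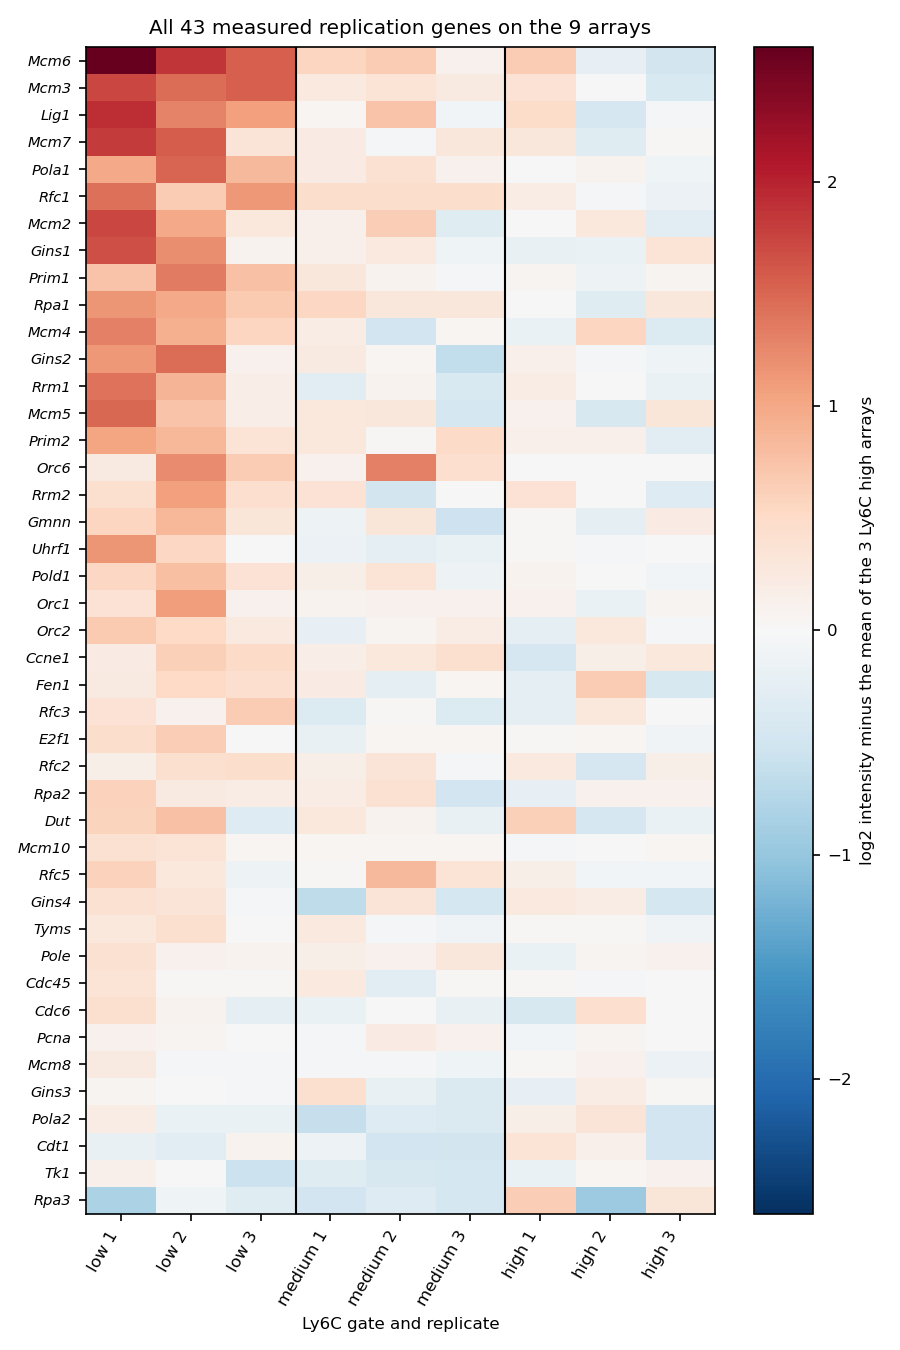
Heat map of the 43 replication genes (rows, ordered by their low minus high difference) on the 9 arrays (columns, Ly6C low, medium and high from left to right), coloured by the log2 intensity minus the gene's mean over the 3 high arrays. Red above and blue below that mean show most of the strong red in the low columns, less in replicate 3, whose mean over the genes was 5.47 against 5.91 and 5.84 on the other low arrays.

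In limma's moderated test, 7 of the 43 genes (16.3%) rose in Ly6C low cells relative to Ly6C high cells at an adjusted p under 0.05, and none fell. Over all genes, 3.35% rose and 2.32% fell in that comparison. The 7 genes were Mcm3, Mcm6, Rfc1, Rpa1, Pola1, Prim1 and Lig1, which span the helicase, the clamp loader, single-strand binding, the start of each strand and the sealing of the lagging strand. At an unadjusted p under 0.05, 25 of the 43 were higher in low cells, against 10.4% of all genes. For 16 of the 43, every low array was above every high array, which held for 11.4% of all genes. In the moderated F test over the 3 gates, 6 genes passed, the same names without Lig1 (adjusted p = 0.0585), against 4% of all genes. Mcm3 passed that test whichever array was left out, and each of the other 5 missed it without at least 1 array.

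**Figure D2:**
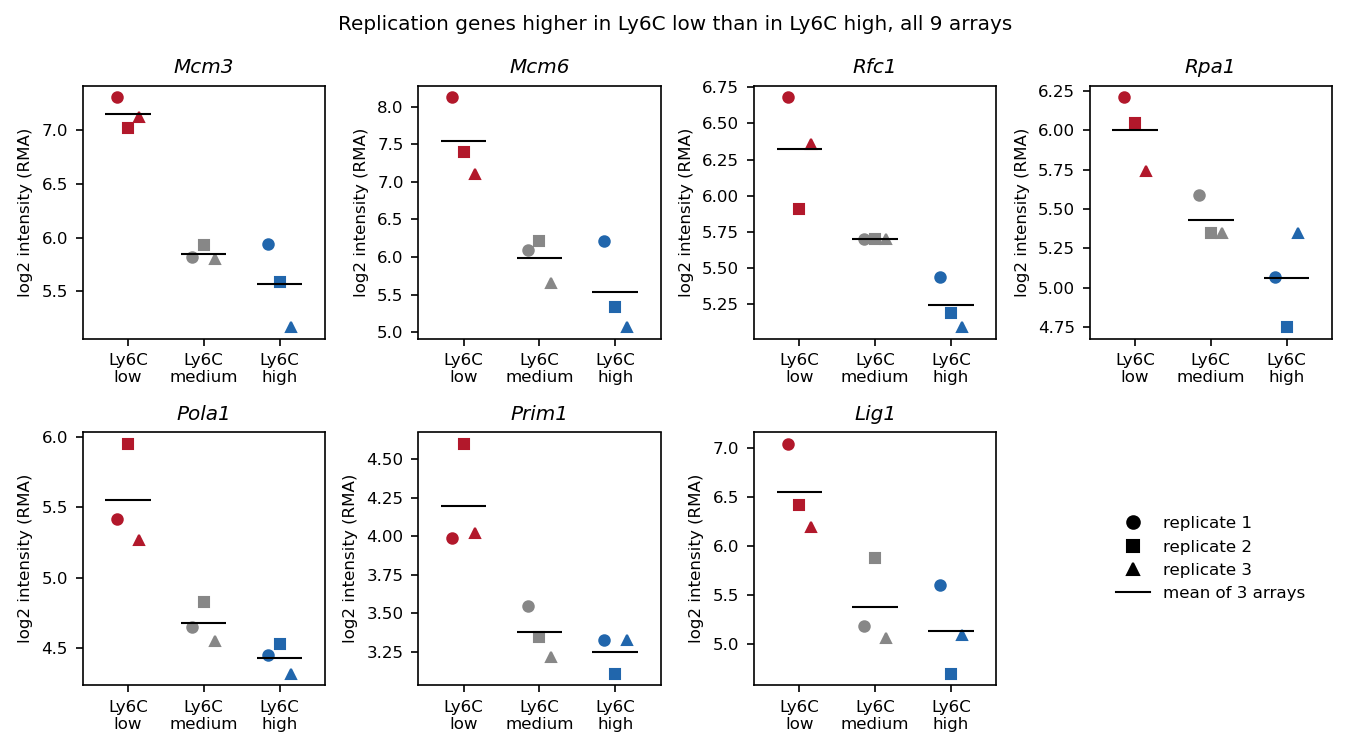
Log2 value of the 7 replication genes that rose in Ly6C low cells relative to Ly6C high cells, by array (points) and gate mean (bars), with low, medium and high cells from left to right in each panel. In all 7 panels the low points lie above the medium and the high points, with no overlap.

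Short stretches around E2F words are shown here because many replication genes are known targets of E2F factors. The stretches are those near the starts of the genes that rose and hold such a word, and of Mcm5 and Mcm7 of the helicase ring. They are credited to RefSeq, build GRCm38.p6, and run 5′ to 3′ on the strand of the gene. Capitals mark the words TTTGGCGC, TTTCCCGC, TTTGCCGC or TTTCGCGC, read on either strand, so that a word on the other strand appears as its reverse complement. Positions count from the annotated start, with 1 as the first transcribed base. The Pola1 and Mcm7 windows are each that of a start inside the gene's span.
Mcm6, chr1:128359725-128359835, minus strand, -130 to -20: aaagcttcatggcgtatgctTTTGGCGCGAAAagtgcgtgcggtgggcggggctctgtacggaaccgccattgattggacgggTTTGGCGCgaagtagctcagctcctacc
Mcm3, chr1:20820266-20820294, minus strand, 19 to 47: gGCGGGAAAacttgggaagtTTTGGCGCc
Mcm5, chr8:75109336-75109387, plus strand, -173 to -122: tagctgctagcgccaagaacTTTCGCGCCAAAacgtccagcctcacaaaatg
Mcm7, chr5:138172030-138172059, minus strand, -176 to -147: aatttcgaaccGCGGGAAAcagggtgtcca
Mcm7, chr5:138171849-138171878, minus strand, 6 to 35: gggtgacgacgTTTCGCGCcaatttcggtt
Pola1, chrX:93632275-93632304, minus strand, -149 to -120: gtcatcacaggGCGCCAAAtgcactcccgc
Lig1, chr7:13278841-13278870, plus strand, 16 to 45: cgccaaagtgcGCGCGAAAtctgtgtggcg
The Mcm6 stretch holds 3 matches, of which TTTGGCGC and TTTCGCGC overlap on opposite strands, and the Mcm5 stretch holds 2, the same words, which also overlap on opposite strands.

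Windows of 300 bases, with 250 before and 50 after an annotated start, were at hand for 35 of the 43 genes. An E2F word stood in a window of 14 of the 35 (40%), against 554 of 16990 tested genes with a window (3.26%). It stood in 4 of the 7 genes that rose in low cells, namely Mcm3, Mcm6, Pola1 and Lig1. No E2F word was found for Rfc1, Rpa1 and Prim1, which also rose, or for Mcm2 of the ring. Genes that did not rise and are not shown above also held one, among them Cdt1, Cdc6, Gins3 and Mcm8. Whether E2F has a part in the differences was not tested. Among related lists the share was 34.6% of other fork and origin genes, 34.8% of G1/S control genes and 5.26% of G2 and mitosis genes. The words TTTGAA and TTCGAA of the cell cycle homology region, searched on both strands, had the reverse pattern. They stood in 17.1% of the replication genes, in 78.9% of the G2 and mitosis genes and in 19.4% of all genes with a window. The word CCAAT on either strand was in 65.7% of the replication genes and 41.6% of all genes, and GGGCGG on either strand in 74.3% and 49.5%. The replication genes lay within the range of the related lists for both words. That range was 41.7% to 84.2% for CCAAT and 58.3% to 87.0% for GGGCGG. With each gene's window of highest GC content, the median over genes was 61.3% in the replication genes and 57.3% over all genes. These words were not compared at equal GC content. A match says only that the letters are there.

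The helicase group gave the largest single difference. Mcm6, a subunit of the Mcm2 to Mcm7 ring, read 8.12, 7.40 and 7.10 on the low arrays, 6.09, 6.21 and 5.65 on the medium arrays and 6.21, 5.33 and 5.07 on the high arrays. All low arrays were above all others, and the medium and high arrays overlapped. Mcm6 was 4.01-fold higher in low than in high cells (log2 difference 2.00, SE 0.34, adjusted p = 0.0108), and its log2 difference from medium cells was 1.55 with an adjusted p of 0.0561. Mcm3, another subunit of the ring, read 7.30, 7.02 and 7.12 on the low arrays, 5.82, 5.93 and 5.80 on the medium arrays and 5.94, 5.59 and 5.17 on the high arrays. Its low arrays were tightly grouped and clear of all the others. Mcm3 was 2.99-fold higher in low than in high cells (log2 difference 1.58, SE 0.18, adjusted p = 0.0019). Both kept an adjusted p under 0.05 in this comparison whichever of the 9 arrays was left out.

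The other subunits of the ring had smaller differences, and none of Mcm2, Mcm4, Mcm5 and Mcm7 passed the threshold. Mcm7 read 6.33, 6.09 and 4.86 on the low arrays, 4.73, 4.47 and 4.82 on the medium arrays and 4.82, 4.21 and 4.55 on the high arrays. Low replicate 3 lay just above the medium and high arrays here, far from the other low arrays, and the low minus high difference was 1.24 (SE 0.34, adjusted p = 0.0755). Mcm2 read 6.79, 6.04 and 5.34 on the low arrays, 5.19, 5.69 and 4.75 on the medium arrays and 5.05, 5.34 and 4.79 on the high arrays, with low replicate 3 again the lowest of its gate. The low minus high differences of Mcm2, Mcm4 and Mcm5 were 1.00, 0.93 and 0.81, with adjusted p-values of 0.166, 0.102 and 0.26. Averaged over the 6 subunits, the log2 value ranged from 6.01 to 7.04 on the low arrays, 5.25 to 5.53 on the medium arrays and 5.07 to 5.47 on the high arrays. For 5 of the 6 subunits every low array was above every high array, and Mcm5 was the exception.

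The factors that join the ring to form the active helicase showed smaller or less even differences. Of the GINS subunits, Gins1 and Gins2 had low minus high differences of 0.99 and 0.90 (adjusted p = 0.16 and 0.181), while Gins3 and Gins4 had 0.01 and 0.23. Gins2 read 7.17, 7.49 and 6.15 on the low arrays, 6.27, 6.09 and 5.41 on the medium arrays and 6.18, 5.99 and 5.93 on the high arrays. Low replicate 3 of Gins2 thus lay within the range of the other gates, while the other low arrays were above it. Cdc45, Mcm10, which acts as the helicase starts, and Mcm8, a relative of the ring subunits with a role in repair, differed by 0.14, 0.27 and 0.05, and none passed the threshold.

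No origin licensing gene passed the threshold. Orc6, a subunit of the origin recognition complex, had the largest difference of the 6 and read 6.46, 7.45 and 6.89 on the low arrays, 6.33, 7.54 and 6.65 on the medium arrays and 6.24, 6.20 and 6.21 on the high arrays. Every low and every medium array was above the high arrays, but replicate 2 was above the other arrays of its gate in both low and medium cells. Its low minus high difference was 0.72 (SE 0.32, adjusted p = 0.28) and its medium minus high difference 0.62 (adjusted p = 0.705). The origin complex subunits Orc1 and Orc2 differed by 0.52 and 0.49 between low and high cells. Gmnn, which encodes geminin, the inhibitor of Cdt1, differed by 0.58 (adjusted p = 0.213). Cdt1 and Cdc6, the loading factors themselves, differed by -0.13 and 0.08.

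Among clamp and clamp loader genes, Rfc1 rose and Pcna was level. Rfc1, the large subunit of the clamp loader, read 6.68, 5.91 and 6.36 on the low arrays, 5.70 on each of the medium arrays and 5.44, 5.19 and 5.09 on the high arrays. The gates did not overlap, with medium cells between the others. Rfc1 was 2.11-fold higher in low than in high cells (log2 difference 1.08, SE 0.18, adjusted p = 0.0115), and stayed under the threshold whichever array was left out. It missed the threshold when limma was given only the low and high arrays (adjusted p = 0.0553), and in a t test without moderation (adjusted p = 0.0696). Its 3 medium values were identical as deposited, and 7 of the 43 genes had the same value on 3 or more arrays, as did 28.1% of all genes. Pcna, the clamp, read between 9.70 and 9.98 on all 9 arrays, a range of 0.28, with a low minus high difference of 0.07 (SE 0.10, adjusted p = 0.82). The smaller loader subunits Rfc2, Rfc3 and Rfc5 differed by 0.35, 0.38 and 0.24 between low and high cells, and did not pass the threshold.

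Of the RPA complex, the large subunit alone passed. Rpa1 read 6.21, 6.05 and 5.74 on the low arrays, 5.59, 5.35 and 5.35 on the medium arrays and 5.07, 4.75 and 5.35 on the high arrays. The low arrays were above the rest, while a high array reached the lower medium ones. Rpa1 was 1.92-fold higher in low than in high cells (SE 0.17 on the log2 scale, adjusted p = 0.0161), and a further Rpa1 probe set differed by 0.96. Without low replicate 1 the adjusted p of Rpa1 was 0.0641, and it also missed the threshold without low replicate 2. Rpa2 differed by 0.34 (adjusted p = 0.533). The probe sets of Rpa3 disagreed, with low minus high differences of -0.42 and 0.02.

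The polymerase alpha and primase complex, which lays down the RNA-DNA primer, supplied a pair of the genes that rose. Pola1, its catalytic subunit, read 5.42, 5.95 and 5.27 on the low arrays, 4.65, 4.83 and 4.55 on the medium arrays and 4.45, 4.53 and 4.32 on the high arrays. Low arrays were above all others, and medium arrays were above all high arrays. Pola1 was 2.16-fold higher in low than in high cells (log2 difference 1.11, SE 0.17, adjusted p = 0.0074), and kept this call whichever array was left out. Prim1, the catalytic primase subunit, read 3.99, 4.60 and 4.02 on the low arrays, 3.55, 3.35 and 3.22 on the medium arrays and 3.33, 3.11 and 3.33 on the high arrays. Low arrays were again clear of the rest, at values near the array medians of 3.93 to 4.10, where signal is dim. Pola1, Rfc1 and Rpa1 were brighter, but they too fell short of a log2 value of 6 on 3 arrays. Prim1 was 1.93-fold higher in low than in high cells (log2 difference 0.95, SE 0.17, adjusted p = 0.0153), with an adjusted p of 0.0553 without high replicate 2.

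The partner subunits and the main polymerases did not pass. Prim2, the large primase subunit, differed by 0.75 between low and high cells (adjusted p = 0.0678), and Pola2, the accessory subunit of polymerase alpha, by -0.06. Pold1, the catalytic subunit of polymerase delta, differed by 0.55 (adjusted p = 0.0718), with every low array above every medium and high array. Pole, the catalytic subunit of polymerase epsilon, differed by 0.20, and by 0.71 on its other probe set.

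Lig1, the ligase that joins Okazaki fragments, read 7.04, 6.42 and 6.19 on the low arrays, 5.18, 5.88 and 5.06 on the medium arrays and 5.60, 4.70 and 5.09 on the high arrays. The low arrays were above the rest, and medium and high overlapped over most of their range. Lig1 was 2.68-fold higher in low than in high cells (log2 difference 1.42, SE 0.31, adjusted p = 0.0298). This call was the least steady of the 7, since leaving out low replicate 1, low replicate 2, medium replicate 1, high replicate 2 or high replicate 3 ended it, with an adjusted p of up to 0.1. Fen1, the flap nuclease of the same step, differed by 0.39 (adjusted p = 0.531), and by 0.05 on its other probe set.

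None of the 5 nucleotide supply genes passed. Rrm1, the large subunit of ribonucleotide reductase, had the largest difference and read 6.94, 6.41 and 5.70 on the low arrays, 5.24, 5.61 and 5.13 on the medium arrays and 5.72, 5.50 and 5.35 on the high arrays. Low replicate 3 fell among the high arrays, and the low minus high difference was 0.83 (SE 0.28, adjusted p = 0.143). Rrm2, the small subunit, differed by 0.63, Tyms, which makes thymidylate, by 0.23, and Dut, which removes dUTP, by 0.33. On their other probe sets, Rrm2 differed by 0.33 and Dut by -0.08. Tk1, the thymidine kinase of dividing cells, differed by -0.15.

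The S phase entry and regulator genes gave small differences. Uhrf1, which brings maintenance DNA methylation to new DNA, read 6.69, 6.09 and 5.53 on the low arrays, 5.40, 5.31 and 5.38 on the medium arrays and 5.59, 5.52 and 5.54 on the high arrays. Low replicate 3 matched the high arrays, whereas the other low arrays were above them, and the low minus high difference was 0.56 (SE 0.24, adjusted p = 0.259). E2f1, an activating E2F factor, and Ccne1, which encodes cyclin E1, differed by 0.37 and 0.44, with adjusted p-values of 0.265 and 0.272.

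**Figure D3:**
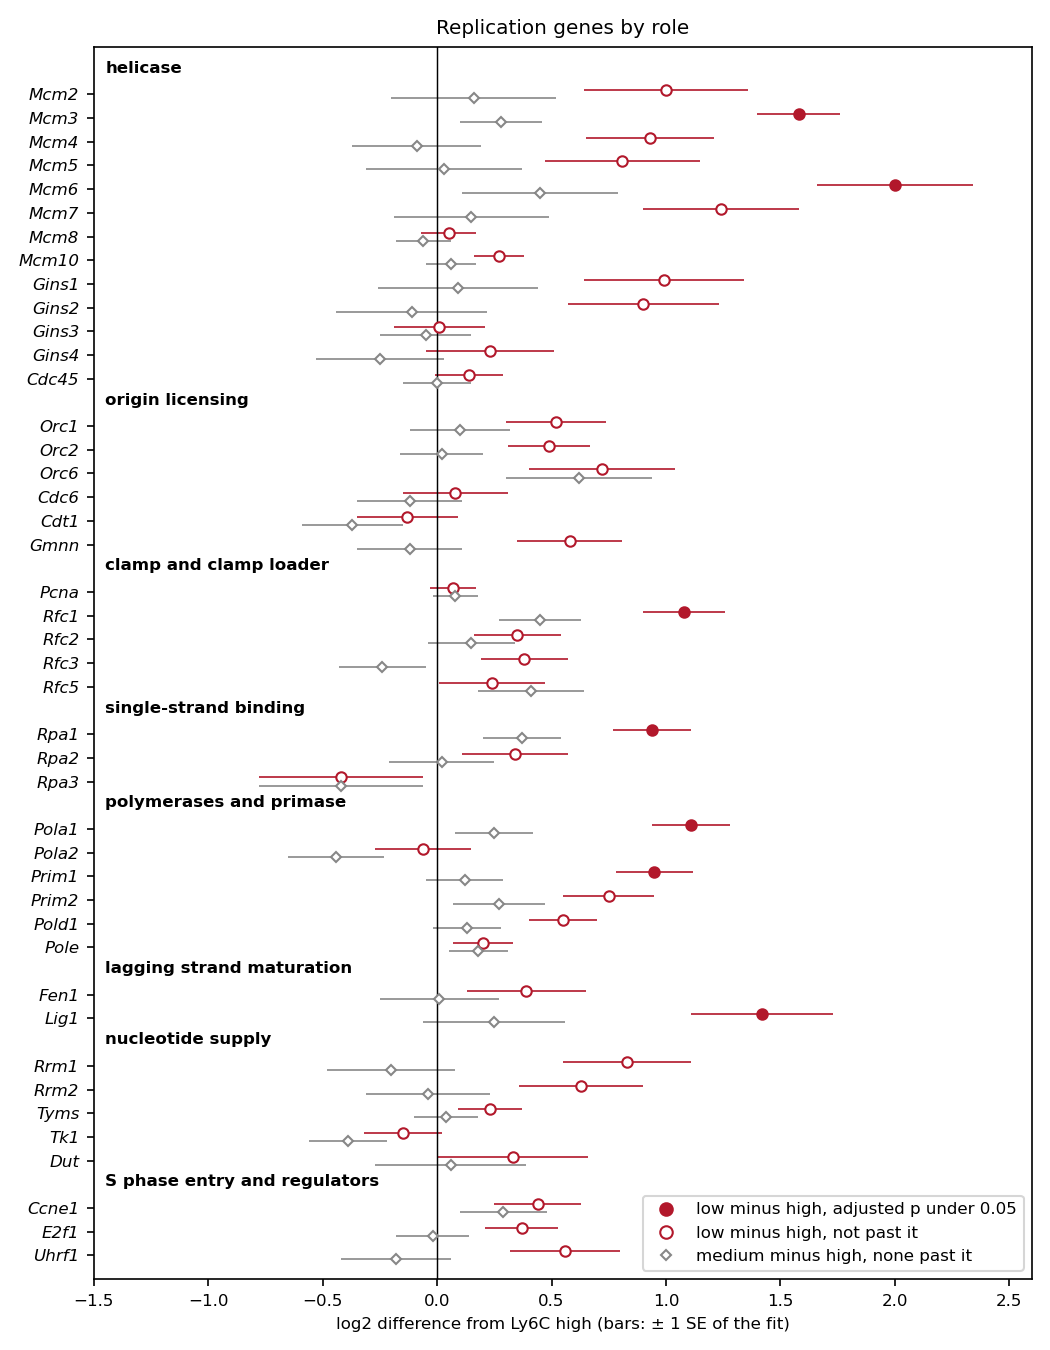
Log2 differences of the 43 replication genes from Ly6C high cells, grouped by role, with low minus high as circles (filled where the adjusted p is under 0.05) above medium minus high as diamonds, and bars of 1 SE of the fit. Low minus high runs from -0.42 for Rpa3 to 2.00 for Mcm6, and no medium minus high difference is past the threshold.

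Low replicate 3 carried much of the spread among low arrays. It was the lowest of the low arrays for 29 of the 43 genes (67.4%), against 30.1% of all genes, and for 4 of the 7 that rose. Without it, 15 of the 43 genes (34.9%) passed the threshold between low and high cells, against 3.38% of all genes that rose in that fit. All 7 of the genes above were among the 15, and the 8 added were Mcm2, Mcm7, Gins1, Gins2, Prim2, Rrm1, E2f1 and Uhrf1. Mcm7, for example, then differed by 1.69 (adjusted p = 0.00408), and Gins1 by 1.44 (adjusted p = 0.00979). The same array had the highest neutrophil marker mean of the low arrays (7.36 against 5.72 and 6.27) and the highest Ly6c2 (9.40 against 7.69 and 7.90), and the part of either in these values was not tested.

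Between Ly6C medium and Ly6C high cells, no replication gene passed limma's threshold in either direction, as against 0.239% of all genes. At an unadjusted p under 0.05 there were 2, Rfc1 with a medium minus high difference of 0.45 and Tk1 with -0.39, while 7.53% of all genes reached that level. The differences were positive for 27 genes and negative for 16, against 12600 and 9579 of all 22180 genes. Among the 7 genes that rose in low cells, the medium mean lay between the others each time. Its place ran from 12.9% of the way from the high to the low mean for Prim1 to 42.2% for Rfc1. These 7 were picked by their low minus high difference in the same values, which favours a medium mean between the others. Over all 43 measured replication genes, the medium mean was the lowest of the gates for 15, and the low mean was the highest for 37.

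Between Ly6C low and Ly6C medium cells, 2 replication genes rose and none fell, against 1.38% of all genes that rose. Mcm3 differed by 1.30 (adjusted p = 0.0106) and Pola1 by 0.87 (adjusted p = 0.0431). Neither call was independent of single arrays. Mcm3 missed the threshold without low replicate 1 or medium replicate 3 (adjusted p of up to 0.054), and Pola1 missed it when any array but low replicate 3 was left out (up to 0.153). Without low replicate 3 there were 8 calls, among them Mcm3 and Pola1, and the share of all genes was not counted for that fit. The low minus medium difference was positive for 41 of the 43 genes, against 10221 of all 22180 genes. For 18 of the 43, every low array was above every medium array, against 9.25% of all genes. The comparisons with high and with medium cells use the same low arrays, so they are not independent of each other.

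Related gene lists outside the 43 were read in the same fit. Of 32 other fork and origin genes, 5 rose in low relative to high cells and none fell, with a median difference of 0.141. Tipin, which helps stabilise forks, read 4.60, 4.63 and 4.87 on the low arrays, 3.67, 3.14 and 3.67 on the medium arrays and 3.59, 3.28 and 3.10 on the high arrays, a low minus high difference of 1.38 (adjusted p = 0.00344). Rnaseh2b, a subunit of the enzyme that removes ribonucleotides from DNA, differed by 1.22 (adjusted p = 0.0038), and was also higher than in medium cells, as was Tipin. Top2a, the topoisomerase of dividing cells, and Topbp1, a factor of origin firing and checkpoint signalling, differed by 1.10 and 0.81 (adjusted p = 0.0476 and 0.0396). Of 12 genes of chromatin assembly at the fork, 1 rose, Supt16, a subunit of the histone chaperone FACT, with a difference of 0.68 (adjusted p = 0.0151).

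Of 18 other nucleotide synthesis genes, 3 rose and 2 fell in low relative to high cells, with a median of 0.586. Those that rose act in purine and folate metabolism. Shmt2, the mitochondrial serine hydroxymethyltransferase, read 7.51, 7.31 and 7.27 on the low arrays, 6.02, 6.18 and 5.96 on the medium arrays and 6.49, 6.21 and 6.10 on the high arrays, a low minus high difference of 1.10 (adjusted p = 0.0021). Its low arrays were clear of both other gates. Atic and Ppat, enzymes of purine synthesis, differed by 1.43 and 1.24 (adjusted p = 0.0195 and 0.0137). Dck, the deoxycytidine kinase of nucleoside salvage, fell by 0.96 (adjusted p = 0.0181).

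Cell cycle control genes moved in both directions. Of 31 G1/S control genes, 2 rose and 3 fell in low relative to high cells. Ccnd1, which encodes cyclin D1, read 7.78, 7.61 and 7.51 on the low arrays, 6.32, 6.33 and 6.17 on the medium arrays and 6.28, 6.62 and 6.09 on the high arrays, a low minus high difference of 1.31 (adjusted p = 0.0018). Its partner kinase Cdk4 differed by 1.06 (adjusted p = 0.0273). Cdkn1b, which encodes the kinase inhibitor p27, read 8.16, 8.10 and 8.19 on the low arrays, 8.55, 8.12 and 8.49 on the medium arrays and 9.60, 9.10 and 9.28 on the high arrays, and fell by 1.18 in low relative to high cells (adjusted p = 0.0035). For this inhibitor the medium arrays lay beside the low ones, below every high array. Cdkn2d, another kinase inhibitor gene, fell by 0.90 (adjusted p = 0.0203).

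Of 24 G2 and mitosis genes, 2 rose and none fell, with a median of 0.329. They were Birc5, which encodes survivin, with a difference of 0.80 (adjusted p = 0.0045), and Kif20a, a mitotic kinesin, with 0.49 (adjusted p = 0.0161). Mki67, which encodes the proliferation marker Ki-67, read 7.92, 7.69 and 7.30 on the low arrays, 7.18, 6.50 and 7.33 on the medium arrays and 6.07, 6.60 and 7.18 on the high arrays. Its low minus high difference of 1.02 did not pass (adjusted p = 0.103), with low replicate 3 below the highest medium array. Of 14 S phase checkpoint and repair genes 1 rose, Wee1, a kinase that holds back entry into mitosis, with a difference of 2.12 (adjusted p = 0.0014).

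**Figure D4:**
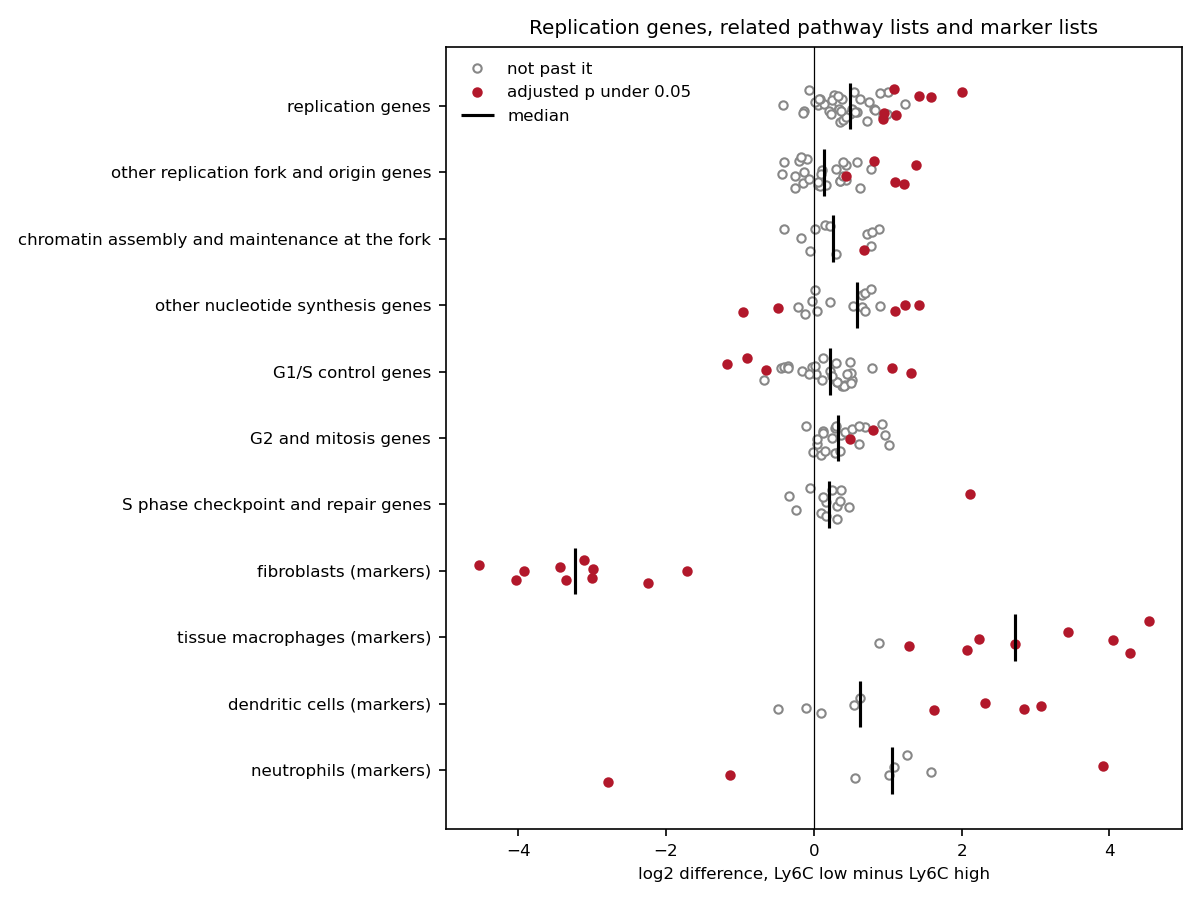
Low minus high log2 differences of single genes (points, spread vertically for legibility) in the replication genes, related lists and marker lists, with list medians as vertical bars and genes at an adjusted p under 0.05 filled. The median is 0.489 in the replication genes, 0.141 in other fork and origin genes, -3.231 in fibroblast markers and 2.718 in tissue macrophage markers.

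Markers of other cell types moved with the gates. The mean of 9 tissue macrophage markers ranged from 9.85 to 10.11 on the low arrays, 7.79 to 8.68 on the medium arrays and 6.88 to 7.34 on the high arrays, and 8 of the 9 rose in low relative to high cells. The mean of 10 fibroblast markers ranged from 4.78 to 5.02 on the low arrays, 5.49 to 5.59 on the medium arrays and 7.47 to 8.86 on the high arrays, and all 10 fell. Between low and medium cells 1 of the 10 fibroblast markers fell, with a median difference of -0.582. Of the dendritic cell markers 4 of 9 rose, with means of 6.11 to 6.42 on the low arrays, 4.97 to 5.36 on the medium arrays and 4.98 to 5.25 on the high arrays. Of the eosinophil markers 3 of 6 rose, with means of 4.52 to 4.70 on the low arrays, 3.88 to 4.25 on the medium arrays and 3.71 to 3.86 on the high arrays. Of the neutrophil markers 1 of 8 rose and 2 fell, and of the endothelial markers 1 of 8 fell. A single marker rose in each of the lists for natural killer cells (of 6), mast cells and basophils (of 6), keratinocytes (of 5), erythroid cells and platelets (of 2) and neutrophil and monocyte precursors (of 6). Of the T cell and B cell markers, 0 of 5 and 0 of 5 passed in limma, with 1 and 0 at an unadjusted p under 0.05. The part of these other cells in the replication gene values was not tested.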

How the data were processed

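The authors deposited log2 intensities of Affymetrix arrays made by RMA, per the submitters' processing notes. RNA was amplified before labelling, per the labels' protocols, and further settings are not given in the sources used here. The values were used as deposited. Only the 23521 probe sets with 1 gene symbol were used, out of 41345; a further 1814 carried several symbols and 16010 had no entry in the probe annotation. All 22180 genes were tested with limma 3.58.1 in R 4.3.3 (lmFit, eBayes, two-sided) over 9 arrays in 1 fit with 6 residual degrees of freedom, with Benjamini-Hochberg adjustment over all genes at 0.05 and no filter on dim genes. The procedure was tested on simulated data. RMA compresses differences of dim genes, and with 3 arrays per gate precision is limited by their number.

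The members and gene lists were chosen with earlier results of these data known. All 43 measured members are accounted for by role. Values on every array are given for members past the threshold and for the largest low minus high difference in each role; Mcm2, Mcm7, Gins2 and Pcna were added after their values were seen. Of each related list, at most 4 genes past the threshold are named, and Mki67 was likewise added. Alternatives were another normalization, probe set rule, dim filter, prior, array weights, no moderation, a replicate block, 2 gates per fit and leaving out each array. Replicate numbers were not taken as pairs in the main fit, because the labels state no pairing. Deviations of arrays with the same number correlated by 0.06 to 0.476, over 0.1 in 6 of 9 pairs. Those of arrays with different numbers correlated by -0.326 to 0.183. Arrays with the same number thus shared some deviation, and counts from a fit with a replicate block are given below.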

Additional observations from a re-analysis of the deposited data

How the results depend on the processing

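The count of 7 replication genes higher in low than in high cells became 1 without moderation and 3 with only the 2 gates compared. It ran from 5 to 15 when single arrays were left out. With dim genes left out, 12 of the 43 were tested and the count was 4. Rfc1, Rpa1, Pola1 and Prim1 were not among the 12, so not all of the 4 belong to the 7. Mcm3 and Lig1 reached a log2 value of 6 on the low arrays alone, so this filter is not independent of the gates and lends their calls no support. Of the 7, Mcm3 alone kept its call without moderation, and Mcm3, Mcm6 and Pola1 kept theirs with only the 2 gates compared. The count of 2 between low and medium cells became 4 with arrays centred, 4 with array weights, 3 with dim genes left out, 3 with the mean of all probe sets, 0 without moderation, 1 with only the 2 gates compared and 1 at a minimum of 2-fold, and ran from 0 to 8 without single arrays. The F test count of 6 became 3 with dim genes left out and 0 without moderation, and ran from 1 to 10 without single arrays. The lowest and highest counts came without low replicate 1 and without low replicate 3, with low replicate 2 (low against high) and medium replicate 3 (low against medium) tied for lowest. The count between medium and high cells was 0 in every setting run. With the replicate block, the counts were 8 for low against high, 3 for low against medium, 0 for medium against high and 5 for the F test. The median low minus high difference lay between 0.351 and 0.651 over its alternatives, and that of medium minus high between -0.01 with arrays centred and 0.098. Differences between gates were also followed for Mcm3, Mcm6, Orc6, Rfc1, Rpa1, Pola1, Prim1, Lig1, Rrm1 and Uhrf1. Of their alternative values, 468 kept direction and stayed called or not called as in the main fit. A further 33 lost the call, 16 gained it and 5 changed sign. The sign changes were in differences that had not passed: Orc6 low minus medium was -0.02 after repeated quantile normalization and ran from -0.16 to 0.44 without single arrays, and Lig1 medium minus high ran from -0.01 to 0.48. Beyond the settings that test fewer genes or arrays, the cause was not tested. Dim signal limits what can be seen, since 12 of the 43 genes reached a log2 value of 6 on 3 arrays or more.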
